A study of Homo sapiens with 9 samples.

Results

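The 10 genes described here are transcriptional outputs and factors of the YAP-TEAD branch of the Hippo pathway: CCN1, CCN2, ANKRD1, AMOTL1, AMOTL2, LATS2, YAP1, WWTR1, TEAD1 and TEAD4. They were chosen by name from the 61552 genes listed in each library, 41057 of which carry a name. Earlier results of these data were known when these 10 were chosen. All 10 were found in all 9 libraries. MDA-MB-231 cells, an established human triple-negative breast cancer line labelled wild type and grown in DMEM with 10% FBS, were kept for 24 h with 2-deoxy-glucose (2-DG) at 0, 10 or 20 mM. 2-DG is a glucose analogue that enters cells like glucose and blocks glycolysis. The control cells received phosphate-buffered saline in its place, according to the paper. Each condition had 3 libraries of total RNA prepared for mRNA sequencing, and nothing in the labels states whether they came from separate cultures, so every p below measures only the spread between these libraries.

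Levels are given as FPKM, the reads on a gene scaled by its length and by the reads counted in the library. Comparisons of levels between genes rest on the gene lengths behind these values, which are not given in the sources used here. The library totals by which the FPKM values were scaled, recovered from those values, were 35517179, 36650036 and 34300991 in control replicates 1 to 3. At 10 mM 2-DG they were 35138071, 40843638 and 34374980, and at 20 mM 30974968, 39780925 and 33060480. The least read member in any library was LATS2 with 708 reads, and the most read was CCN1 with 43063. Markers of the line were present in the control libraries, with mean levels of 285 FPKM for VIM, 149.7 for KRT18, 103 for CAV1 and 69.8 for CD44. The hormone receptor genes ESR1 and PGR did not exceed 0.0204 FPKM in any library. Of the other genes that are low in this line, ERBB2 had means of 8.81, 5.91 and 5.76 FPKM in the control and at the rising doses, EPCAM 3.75, 3.31 and 2.85, and CDH1 0.365, 0.0493 and 0.0686. The sum over these and the receptor genes was 12.3 to 13.9 FPKM in the control libraries and 8.46 to 9.69 in the treated ones. Markers of leukocytes, endothelial cells and fibroblasts summed to at most 3.86 FPKM in any library for any of these lists, with CD14 and PECAM1 as the most abundant genes. The leukocyte sum was 2.45 to 3.86 FPKM in the control, 1.70 to 2.79 at 10 mM and 1.16 to 1.83 at 20 mM, while PTPRC stayed at or under 0.0327 FPKM and CD3E at or under 0.0109. The endothelial sum was 1.47 to 1.95 FPKM in the control, 1.12 to 1.45 at 10 mM and 0.854 to 1.05 at 20 mM, with no overlap between the groups, while CDH5 stayed at or under 0.00480 FPKM. The sum over the 4 markers of the line itself was 577 to 631 FPKM in the control, 495 to 579.98 at 10 mM and 522 to 547 at 20 mM. The mitochondrial gene MT-CO1 held 1.36% to 1.40% of the reads in the control libraries and 1.56% to 1.85% in the treated ones. Mitochondrial reads made up 7.16% to 7.88% in the control, 7.72% to 9.76% at 10 mM and 7.77% to 8.06% at 20 mM. The highest share was in 10 mM replicate 3. The part of these differences in the results was not tested.

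In the Hippo pathway, the kinases STK3 and STK4 with the adaptor SAV1 activate the kinases LATS1 and LATS2 with their MOB1 partners, which phosphorylate the coactivators YAP1 and WWTR1 (also called TAZ) and keep them out of the nucleus. Coactivators that escape this bind the TEAD factors on DNA and raise the transcription of genes such as CCN1, CCN2 and ANKRD1. The pathway is energy-sensitive: AMPK, a kinase activated when cellular ATP falls, is known to phosphorylate YAP1 and the scaffold AMOTL1. Only mRNA was measured here, not protein, phosphorylation or location in the cell.

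Each dose was compared with the control to ask which of these mRNAs differ with 2-DG. Glycolysis itself was not measured in these libraries. The limma test on log2(FPKM + 1) covered 16572 genes that passed a filter on low reads, all 10 members among them, and a gene was called at an adjusted p under 0.05. At 10 mM, 3 members were called lower, where 17.5% of all genes tested were called lower, and 0 members were called higher (12.1% of all genes tested). At 20 mM, 3 members were called lower (21.6% of all genes tested) and 0 higher (15.4%). There 6 members had an unadjusted p under 0.05, as had 7630 of all 16572 genes tested. The 3 genes called lower were CCN1, ANKRD1 and AMOTL2 at each dose. The comparisons share the control libraries, so they are not independent of each other. Without 10 mM replicate 1, AMOTL1 and TEAD1 were called lower as well, which made 5 members lower at each dose. Without 10 mM replicate 2 the same 5 were lower at 20 mM, and CCN2 was called higher at 20 mM under 6 of 19 alternatives. The median log2 fold change over the 10 members was -0.15 at 10 mM and -0.23 at 20 mM, beside -0.01 and -0.02 over all genes tested. The split of all genes depended on the scaling: with upper-quartile factors 3114 genes were called higher and 2671 lower at 20 mM, in place of 2544 higher and 3582 lower.

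Counted by whether the libraries overlapped, 3 members had all 10 mM libraries below all control libraries (22.7% of all genes tested) and 0 had all of them above (17.8%). At 20 mM, 5 members lay entirely below the control (29.9% of all genes tested) and 1, CCN2, entirely above it (23.3%). The study set its thresholds at a p under 0.05 and a log2 fold change beyond 1 in either direction, with DESeq2. With these numbers put on the unadjusted p and the fold change of limma, which are not those of DESeq2, ANKRD1 was the 1 member called lower at 10 mM, where 1.16% of all genes tested were. At 20 mM these thresholds called ANKRD1 and AMOTL2 lower (1.96% of all genes tested). AMOTL2 lay at the edge of the fold threshold: its log2 fold change was -1.002 and ran from -1.08 to -0.90 over 19 alternatives. A lower value in bulk RNA cannot tell fewer expressing cells from less RNA per cell.

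**Figure D1:**
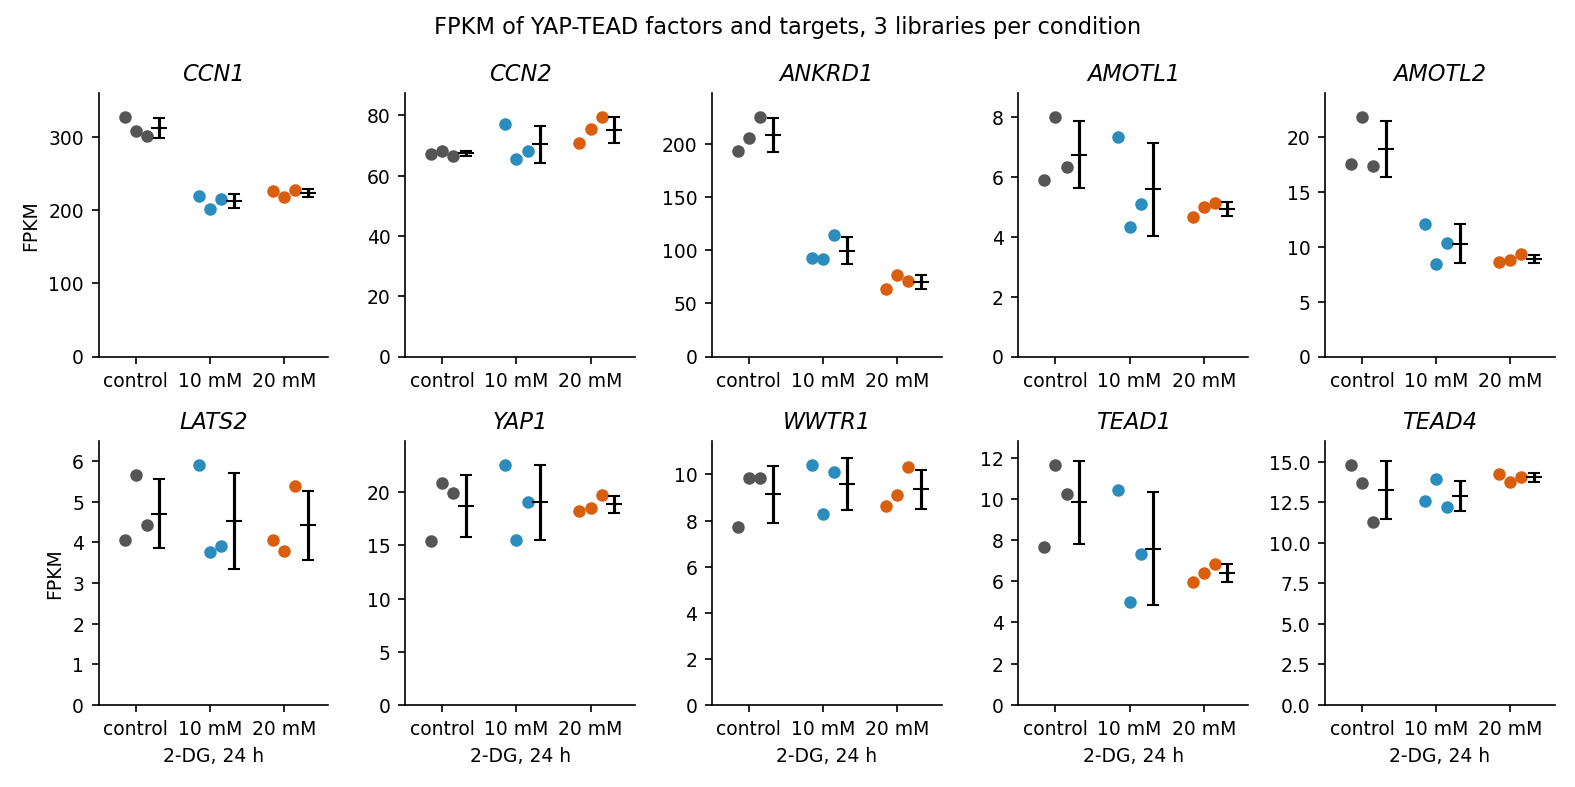
FPKM of each of the 10 genes (vertical axes, from 0) in the control, 10 mM and 20 mM 2-DG libraries (horizontal axes), with 1 point per library and the mean and SD of 3 libraries beside the points. CCN1, ANKRD1 and AMOTL2 lay below all control libraries at each dose, while the 20 mM libraries of CCN2 lay above them.

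**Figure D2:**
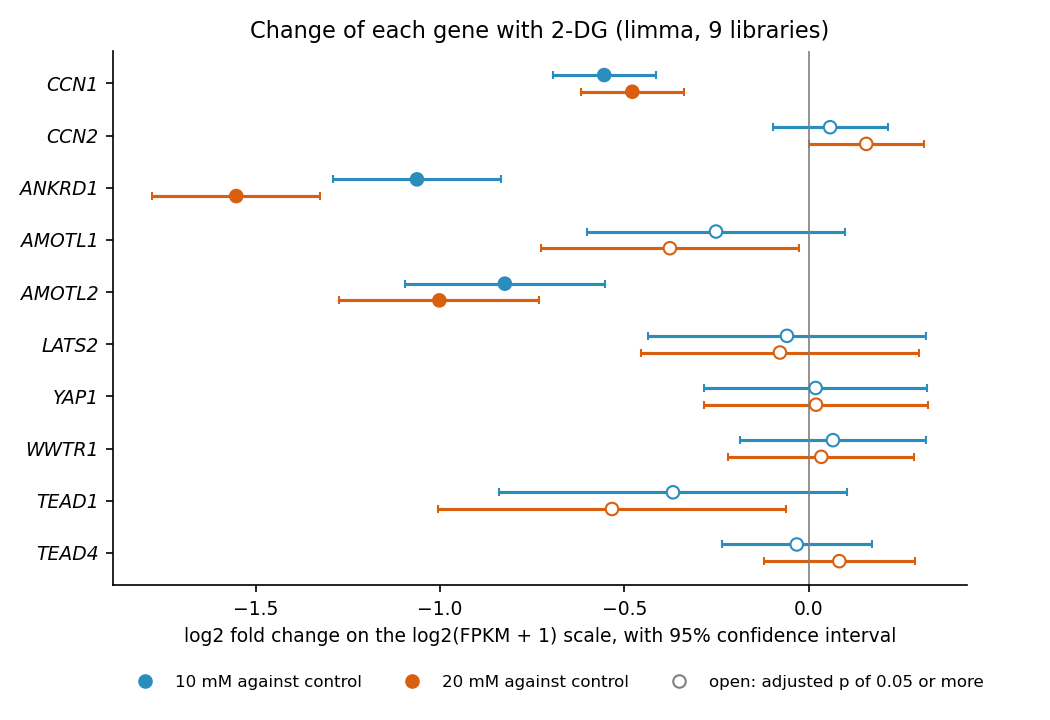
Log2 fold change of each gene against the control on the log2(FPKM + 1) scale (horizontal axis), with the 95% confidence interval of the limma fit over 9 libraries, at 10 mM (blue) and 20 mM (orange). Filled points, with an adjusted p under 0.05, are those of CCN1, ANKRD1 and AMOTL2.

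TEAD factors bind a short motif that is written here as GGAATG. Its reverse complement is CATTCC. The motif was searched on both strands of the RefSeq promoters of GRCh38.p14, which run from 250 bases before to 50 after each transcript start. In all, 7 of the 10 members matched an entry (CCN2, ANKRD1, AMOTL1, AMOTL2, LATS2, YAP1 and WWTR1), AMOTL2 and WWTR1 with 2 starts each. The motif occurred at least 1 time in 14.03% of all 35116 promoters, at least 2 times in 1.37% and at least 3 times in 0.128%. CCN2 held it 3 times and ANKRD1 2 times, all in the direction of the gene. AMOTL2 held it 1 time, on the opposite strand before its second start, and YAP1 1 time. LATS2 held it 1 time after its start, and so not in the 250 bases before the start alone. The promoter of AMOTL1, both promoters of WWTR1 and that of the other AMOTL2 start did not hold these letters. The sequences of the CCN2, ANKRD1 and AMOTL2 promoters are shown as those of targets that hold the motif before a start. ANKRD1 and AMOTL2 were called lower, while CCN2, and YAP1 with its motif before the start, were not. CCN1, TEAD1 and TEAD4 matched no entry by name, so the promoter of CCN1, also called lower, was not searched. The sequences are printed with the motif in capitals and each read 5′ to 3′ on the minus strand of GRCh38.p14. The stretches are chr6:131951374-131951622 for CCN2, chr10:90921277-90921337 and chr10:90921198-90921227 for ANKRD1, and chr3:134374499-134374528 for AMOTL2. The proximal ANKRD1 stretch and the AMOTL2 stretch lie inside exons of these genes in GENCODE 29, whose models begin before the RefSeq starts used here. A match is a description of the sequence and shows no binding.
CCN2: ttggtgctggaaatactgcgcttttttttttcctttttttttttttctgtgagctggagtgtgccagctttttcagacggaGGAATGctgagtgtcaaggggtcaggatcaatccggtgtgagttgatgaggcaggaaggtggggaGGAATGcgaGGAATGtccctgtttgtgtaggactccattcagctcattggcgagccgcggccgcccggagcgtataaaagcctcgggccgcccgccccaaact
ANKRD1, distal motif: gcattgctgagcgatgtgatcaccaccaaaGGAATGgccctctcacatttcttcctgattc
ANKRD1, proximal motif: gacactgagtctGGAATGaaaattcacctg
AMOTL2, second start: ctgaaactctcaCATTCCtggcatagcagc

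**Figure D3:**
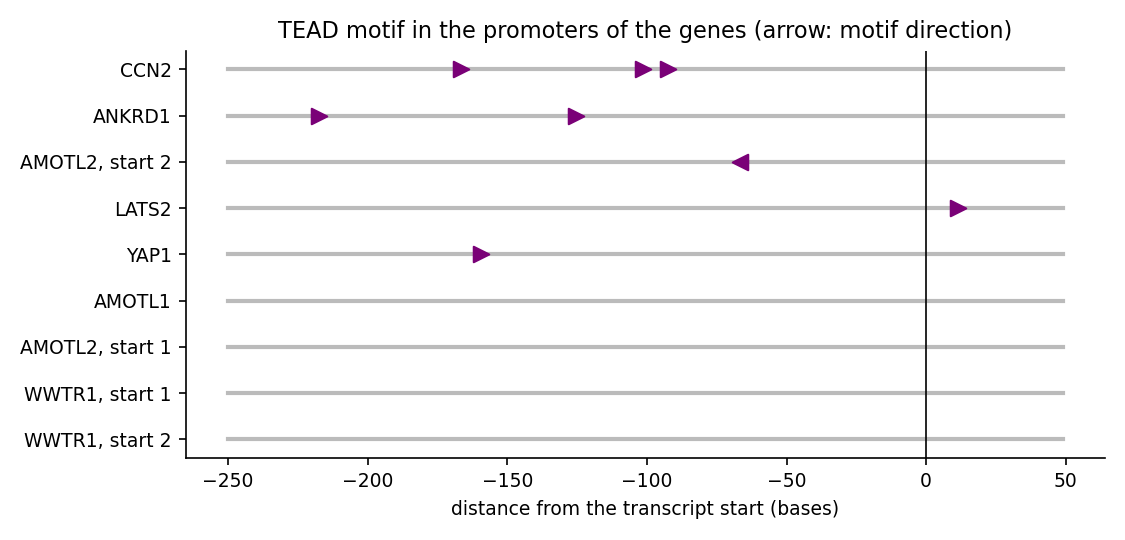
Position of the motif GGAATG in the 9 promoter entries of 7 genes (vertical axis), in bases from the transcript start (horizontal axis), with grey lines for the 300 bases searched and arrows for the direction of the motif. CCN2 held 3 motifs, beginning at -169, -104 and -95 bases, and ANKRD1 2, at -220 and -128 bases.

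CCN1 encodes a secreted protein of the extracellular matrix that binds integrins. Its level was 328, 308 and 302 FPKM in control replicates 1 to 3, 220.1, 202 and 216 at 10 mM and 226, 218 and 228 at 20 mM. All 6 treated libraries lay below all 3 control libraries, and the treated groups overlapped each other. The mean was 313 ± 13.4 FPKM (SD, n = 3) in control libraries, 213 ± 9.31 at 10 mM and 224 ± 5.20 at 20 mM, which were 0.680 and 0.717 of the control mean. The log2 fold change was -0.55 (SE 0.0623, 95% confidence interval -0.69 to -0.42, limma adjusted p 0.000165) at 10 mM. At 20 mM it was -0.48 (SE 0.0623, interval -0.62 to -0.34, limma adjusted p 0.000281).

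CCN2 encodes a related secreted matrix protein and carried the most motifs of the promoters searched for the members. Its level was 67.3, 68.2 and 66.6 FPKM in the control, 77.3, 65.6 and 68.2 at 10 mM and 71.0, 75.5 and 79.5 at 20 mM. The 3 control libraries lay close together, the 10 mM libraries overlapped them, and the 20 mM libraries all lay above them. The means were 67.4 ± 0.804, 70.4 ± 6.14 and 75.3 ± 4.28 FPKM (SD, n = 3). The log2 fold change was 0.06 at 10 mM (95% confidence interval -0.10 to 0.21, limma adjusted p 0.576). It was 0.16 at 20 mM (interval 0.00 to 0.31), with a limma adjusted p of 0.108, and CCN2 was not called. At 20 mM it was called higher under 6 of 19 alternatives, with limma adjusted p from 0.0211 to 0.309. With median-ratio factors the log2 fold change at 20 mM was 0.21 (limma adjusted p 0.0326), and without 10 mM replicate 1 it was 0.16 (limma adjusted p 0.0450).

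The ratio of CCN1 to CCN2 within a library shows how unequally the related genes changed. It was 4.87, 4.51 and 4.54 in the control, 2.85, 3.08 and 3.16 at 10 mM and 3.19, 2.89 and 2.87 at 20 mM. All treated ratios lay below all control ratios. An exact two-sided permutation test gave p 0.10 for each dose against the control, the smallest that 3 libraries against 3 can give, and p 1 between the doses. Such a test was run on 5 ratios in 3 comparisons, 15 tests in all.

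ANKRD1 encodes a nuclear and sarcomeric ankyrin-repeat protein that is widely used as a readout of YAP activity. Its level was 194, 206 and 225 FPKM in the control, 92.2, 92.0 and 114 at 10 mM and 63.5, 76.4 and 71.2 at 20 mM. The 3 groups did not overlap: the 20 mM libraries lay below the 10 mM libraries, which lay below the control. The means were 208 ± 15.9, 99.5 ± 12.8 and 70.4 ± 6.46 FPKM (SD, n = 3), and the treated means were 0.478 and 0.338 of the control mean. At 10 mM the log2 fold change was -1.06 (SE 0.102, 95% confidence interval -1.29 to -0.83, limma adjusted p 6.58e-05). At 20 mM it was -1.55 (SE 0.102, interval -1.78 to -1.32, limma adjusted p 3.67e-06). The ratio of ANKRD1 to CCN2, whose promoters both hold the motif more than 1 time, was 3.09 ± 0.259 in control libraries, 1.42 ± 0.242 at 10 mM and 0.934 ± 0.0674 at 20 mM (SD, n = 3), with no overlap between any of the groups (exact two-sided permutation p 0.10 for each pair). In FPKM, ANKRD1 thus passed from above CCN2 in the control to around its level at 20 mM.

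AMOTL2, AMOTL1 and LATS2 are targets that act back on the pathway: the angiomotin-like scaffolds AMOTL1 and AMOTL2 bind YAP1 and hold it at junctions and actin, and LATS2 is a kinase that phosphorylates it. AMOTL2 was at 17.6, 21.9 and 17.4 FPKM in the control, 12.1, 8.45 and 10.4 at 10 mM and 8.61, 8.80 and 9.32 at 20 mM. All treated libraries lay below all control libraries, and the 20 mM libraries lay within the range of those at 10 mM. The means were 18.9 ± 2.54, 10.3 ± 1.81 and 8.91 ± 0.370 FPKM (SD, n = 3), and the treated means were 0.544 and 0.471 of the control mean. AMOTL2 had a log2 fold change of -0.82 at 10 mM (SE 0.122, 95% confidence interval -1.10 to -0.55, limma adjusted p 0.000843). At 20 mM it was -1.002 (SE 0.122, interval -1.27 to -0.73, limma adjusted p 0.000182).

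The paralogue AMOTL1 was at 5.88, 7.99 and 6.33 FPKM in the control, 7.31, 4.32 and 5.09 at 10 mM and 4.66, 4.98 and 5.12 at 20 mM. Replicate 1 at 10 mM lay among the control libraries, the other 10 mM libraries below them, and the 20 mM libraries all below them. The means were 6.74 ± 1.11, 5.57 ± 1.55 and 4.92 ± 0.236 FPKM (SD, n = 3). The log2 fold change was -0.25 at 10 mM (95% confidence interval -0.60 to 0.10, limma adjusted p 0.262) and -0.38 at 20 mM (interval -0.73 to -0.03, limma adjusted p 0.0877), and neither was called. Without 10 mM replicate 1 it was called at 10 mM (-0.43, limma adjusted p 0.0281) and at 20 mM (limma adjusted p 0.0225), and without 10 mM replicate 2 at 20 mM (limma adjusted p 0.0498). AMOTL1 was called lower under 2 of 19 alternatives at 10 mM (limma adjusted p from 0.00873 to 0.615) and 6 at 20 mM (from 0.000533 to 0.262), the latter also with both limma-voom fits, only the groups compared and the length covariate. The ratio of AMOTL2 to AMOTL1 was 2.82 ± 0.142 in control libraries, 1.88 ± 0.205 at 10 mM and 1.81 ± 0.0417 at 20 mM (SD, n = 3), with all treated ratios below all control ratios (exact two-sided permutation p 0.10 for each dose).

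LATS2 was at 4.06, 5.66 and 4.43 FPKM in the control, 5.90, 3.76 and 3.92 at 10 mM and 4.07, 3.80 and 5.39 at 20 mM. The groups overlapped, with 1 library above 5 FPKM in each. Its log2 fold change was -0.06 (95% confidence interval -0.44 to 0.32) at 10 mM and -0.08 (interval -0.46 to 0.30) at 20 mM, with limma adjusted p of 0.830 and 0.758.

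The coactivator YAP1 was at 15.4, 20.9 and 20.0 FPKM in the control, 22.5, 15.5 and 19.1 at 10 mM and 18.3, 18.6 and 19.8 at 20 mM. The groups overlapped, and the means of 18.7 ± 2.92, 19.1 ± 3.52 and 18.9 ± 0.799 FPKM (SD, n = 3) lay closer together than the libraries of the control. The log2 fold change was 0.02 at each dose (95% confidence interval -0.28 to 0.32 at each), with limma adjusted p of 0.933 and 0.924. Its paralogue WWTR1 was at 7.72, 9.85 and 9.84 FPKM in the control, 10.4, 8.30 and 10.1 at 10 mM and 8.62, 9.12 and 10.3 at 20 mM. These groups overlapped too, with log2 fold changes of 0.07 (interval -0.19 to 0.32, limma adjusted p 0.704) at 10 mM and 0.03 (interval -0.22 to 0.29, limma adjusted p 0.841) at 20 mM. The ratio of YAP1 to WWTR1 was 2.05 ± 0.0627, 1.98 ± 0.166 and 2.03 ± 0.1004 (SD, n = 3; exact two-sided permutation p 0.60 and 1 against the control). The treated ratios ran from 1.87 to 2.17 and the control ratios from 2.00 to 2.12.

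The DNA-binding partner TEAD1 was at 7.64, 11.6 and 10.2 FPKM in the control, 10.4, 4.99 and 7.31 at 10 mM and 5.96, 6.39 and 6.85 at 20 mM. The 20 mM libraries all lay below the control, while replicate 1 at 10 mM lay among the control libraries. The means were 9.83 ± 2.02, 7.58 ± 2.74 and 6.40 ± 0.442 FPKM (SD, n = 3). The log2 fold change was -0.37 at 10 mM (95% confidence interval -0.84 to 0.10, limma adjusted p 0.223) and -0.53 at 20 mM (interval -1.01 to -0.06, limma adjusted p 0.0742), and neither was called. TEAD1 was called lower at 20 mM without control replicate 1 (-0.69, limma adjusted p 0.0422), without 10 mM replicate 1 (limma adjusted p 0.0240) and without 10 mM replicate 2 (limma adjusted p 0.0225), and at 10 mM without 10 mM replicate 1 (-0.60, limma adjusted p 0.0327). TEAD1 was called lower under 2 of 19 alternatives at 10 mM (limma adjusted p from 0.00467 to 0.602) and 8 at 20 mM (from 0.000316 to 0.212), the latter also with FPKM of at least 1 in all libraries, both limma-voom fits, only the groups compared and the length covariate. TEAD4, a second TEAD factor, was at 14.8, 13.7 and 11.3 FPKM in the control, 12.6, 13.9 and 12.2 at 10 mM and 14.3, 13.8 and 14.1 at 20 mM. Its groups overlapped, with log2 fold changes of -0.03 (interval -0.24 to 0.17, limma adjusted p 0.828) at 10 mM and 0.08 (interval -0.12 to 0.29, limma adjusted p 0.514) at 20 mM. The ratio of TEAD1 to TEAD4 was 0.756 ± 0.209 in control libraries, 0.596 ± 0.237 at 10 mM and 0.456 ± 0.0353 at 20 mM (SD, n = 3; exact two-sided permutation p 0.50 and 0.10 against the control).

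The libraries of a group differed in how far long genes were read. The mean length of a gene, taken from the lengths recovered with the reads and weighted by those reads, was 5970 bases in control replicate 1, 6326 in replicate 2 and 6130.1 in replicate 3. At 10 mM it was 6486, 5878 and 6051 bases, and at 20 mM 6119.7, 6123 and 6249. Within each of the 3 groups, TEAD1, AMOTL1, YAP1 and WWTR1 put the libraries in the same order as this mean length, as did 669 of all 16572 genes tested (4.04%) and 576 of the 7690 genes of at least 5000 bases (7.49%). These 4 genes are among the longer members, at 10700, 10030, 6311 and 8353 bases. ANKRD1 and TEAD4, at 1790 and 2275 bases, had this order in none of the groups, CCN1, at 3698 bases, in 1, and AMOTL2, LATS2 and CCN2, at 6479, 5613 and 2338 bases, in 2. Over the 9 libraries, with the mean of each group taken off, Pearson r with the mean length was 0.918 for AMOTL2, 0.916 for LATS2 and 0.831 for CCN2, beside 0.923 for YAP1 and 0.767 for WWTR1, so the library differences were not confined to the genes with the same order in every group. With the logarithm of the mean length as a covariate, a choice made after these values had been seen, TEAD1 and AMOTL1 were called lower at both doses, CCN2 was called higher at 20 mM, and AMOTL2 kept its calls. Of all genes tested, 4314 were then lower at 20 mM in place of 3582. At 20 mM TEAD1 then had a log2 fold change of -0.57 (limma adjusted p 0.000316) and AMOTL1 one of -0.40 (limma adjusted p 0.000533). What made the mean length differ was not tested.

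**Figure D4:**
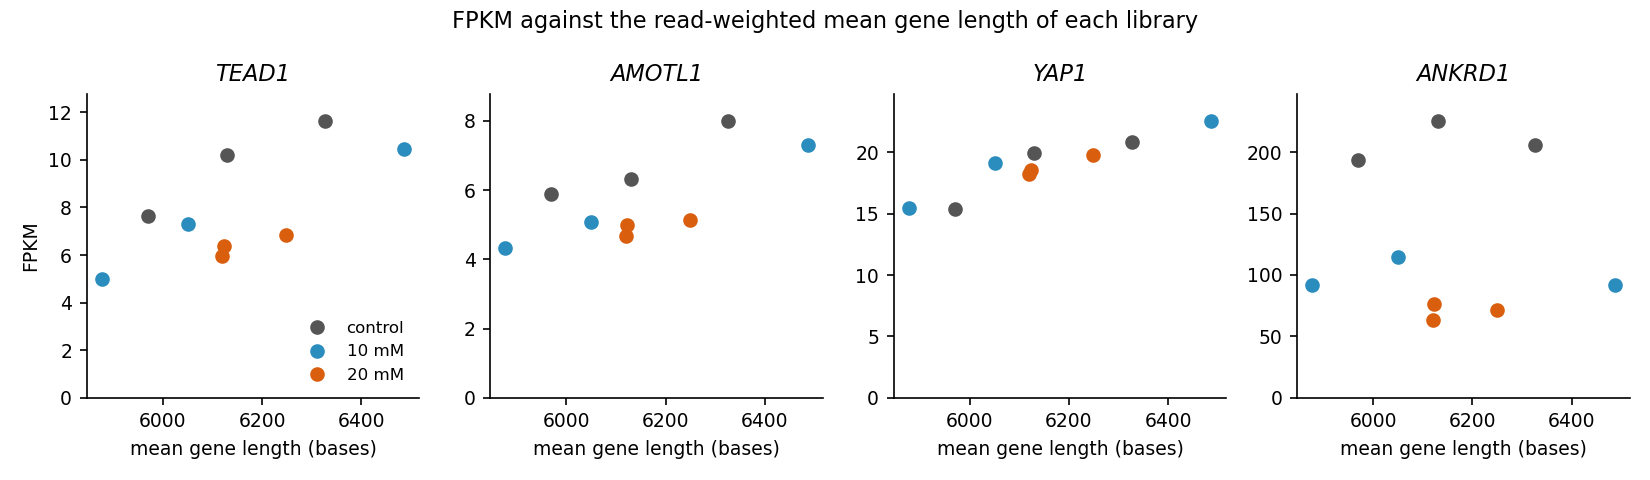
FPKM of TEAD1, AMOTL1, YAP1 and ANKRD1 (vertical axes, from 0) against the read-weighted mean gene length of each library in bases (horizontal axes), with 1 point per library coloured by condition. TEAD1, AMOTL1 and YAP1 followed the mean length within each condition and ANKRD1 did not. The 20 mM libraries of TEAD1 and AMOTL1 lay below all control libraries. Of the control libraries, replicate 3 alone, at 6130.1 bases, had a mean length within the 20 mM range of 6119.7 to 6249 bases.

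Between the doses, limma called 0 of 16572 genes higher and 0 lower at 20 mM against 10 mM (0% and 0%), with 1139 genes at an unadjusted p under 0.05, and limma-voom called 0 as well. Among the members, ANKRD1 alone had an unadjusted p under 0.05: its log2 fold change was -0.49 (SE 0.102, 95% confidence interval -0.72 to -0.26), its unadjusted p 0.000767 and its limma adjusted p 0.254. It was also the 1 member with all 20 mM libraries below all 10 mM libraries, where 7.14% of all genes tested had this. For CCN1 the log2 fold change between the doses was 0.08 (limma adjusted p 0.911) and for AMOTL2 -0.18 (limma adjusted p 0.880).

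In order of mean FPKM, the control ran CCN1, ANKRD1, CCN2, AMOTL2, YAP1, TEAD4, TEAD1, WWTR1, AMOTL1 and LATS2. The ranges of AMOTL2 and YAP1 overlapped in this order, as did those of each neighbouring pair from TEAD4 to AMOTL1. At 10 mM it ran CCN1, ANKRD1, CCN2, YAP1, TEAD4, AMOTL2, WWTR1, TEAD1, AMOTL1 and LATS2, with overlapping neighbours from AMOTL2 onwards. At 20 mM CCN2 came before ANKRD1, with overlapping ranges, and was followed by YAP1, TEAD4, WWTR1, AMOTL2, TEAD1, AMOTL1 and LATS2. There the pairs WWTR1 and AMOTL2, and AMOTL1 and LATS2, overlapped. These orders rest on the gene lengths behind the FPKM, which are not given in the sources used here.

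A further 17 genes known as YAP and TAZ targets in many cancers were examined beside the members, all of which passed the filter. At 10 mM, 2 were called higher and 6 lower, and at 20 mM 2 higher and 7 lower, with median log2 fold changes of -0.14 and -0.18. Of all genes tested, 12.1% were called higher and 17.5% lower at 10 mM, and 15.4% higher and 21.6% lower at 20 mM. These shares are the background of each count of called genes in the lists that follow. Leaving out a library changed the number called lower: it was 2 without control replicate 2 and 3 without 10 mM replicate 3 at 10 mM, and 4 without 20 mM replicate 1 at 20 mM. Without a filter it was 4 at 10 mM and 5 at 20 mM. Those called lower were MYOF, F3, FJX1, ARHGEF17, NUAK2 and TGFB2 at each dose, and RBMS3 at 20 mM. MYOF was called under 9 of 19 alternatives at 10 mM and 15 at 20 mM, and RBMS3 under 13 of 18 at 20 mM. F3 and NUAK2 were called under all 19 at each dose. F3, which encodes tissue factor, was at 78.5, 93.4 and 89.0 FPKM in the control, 47.0, 35.6 and 47.8 at 10 mM and 41.8, 42.5 and 44.2 at 20 mM. Its treated libraries all lay below the control, with log2 fold changes of -0.99 (limma adjusted p 0.000136) and -1.002 (limma adjusted p 8.75e-05). The kinase gene NUAK2 had means of 2.55, 1.62 and 1.15 FPKM, and a log2 fold change of -0.73 at 20 mM (limma adjusted p 0.000147). The added 1 FPKM shrinks changes of genes at low levels: the log2 ratio of the NUAK2 means was -1.15, and with a pseudocount of 0.1 the log2 fold change of NUAK2 was -1.09.

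The genes called higher were IGFBP3, which encodes a carrier of insulin-like growth factors, and GADD45A, a stress-response gene. IGFBP3 was at 13.5, 12.4 and 13.3 FPKM in the control, 22.1, 23.6 and 22.6 at 10 mM and 26.4, 24.2 and 24.0 at 20 mM, with log2 fold changes of 0.76 (limma adjusted p 2.06e-05) and 0.88 (limma adjusted p 4.88e-06). GADD45A was at 32.9, 29.5 and 31.8 FPKM in the control, 45.6, 47.9 and 46.0 at 10 mM and 60.0, 54.9 and 53.7 at 20 mM. Its log2 fold changes were 0.55 (limma adjusted p 0.000167) and 0.82 (limma adjusted p 9.23e-06). For both genes all treated libraries lay above all control libraries. The 6 targets among the members had 0 higher and 3 lower at each dose, with median log2 fold changes of -0.40 and -0.43, beside 17.5% and 21.6% of all genes tested called lower.

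**Figure D5:**
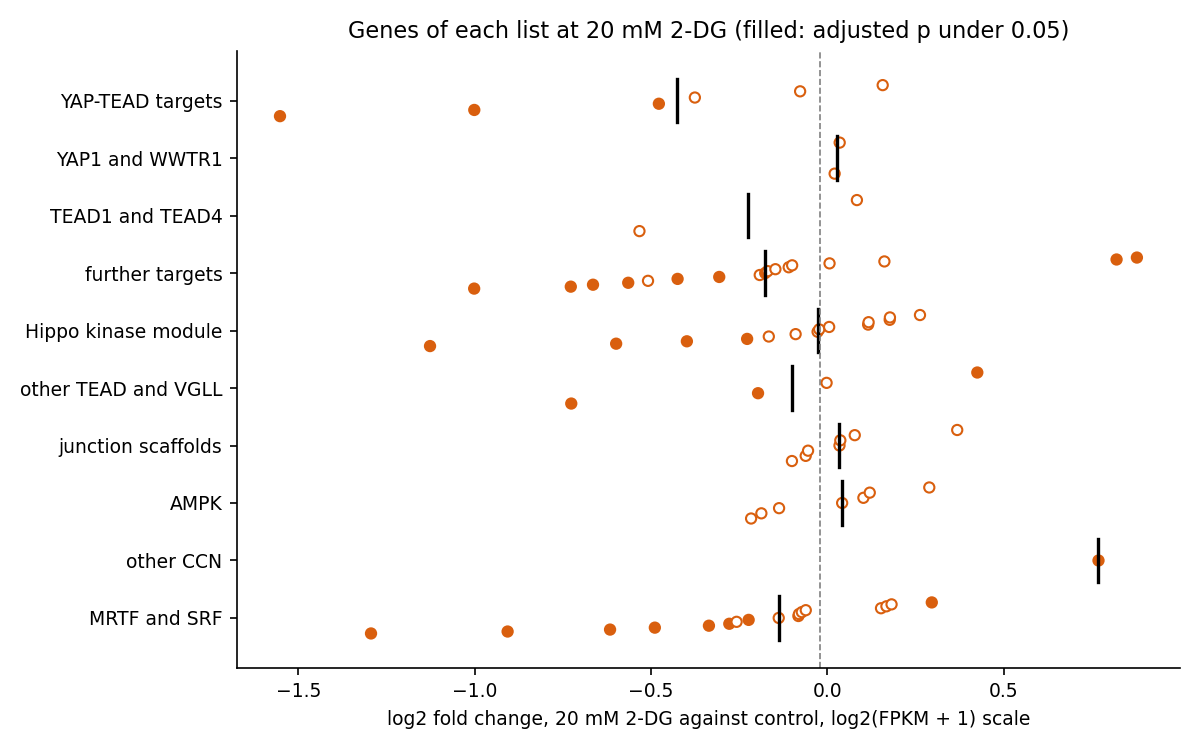
Log2 fold change at 20 mM 2-DG against the control (horizontal axis, log2(FPKM + 1) scale) of each tested gene of the lists named on the vertical axis, with filled points at a limma adjusted p under 0.05, a black bar at the median of each list and a dashed line at the median of all genes tested. The targets spread from ANKRD1 at -1.55 to IGFBP3 at 0.88, while YAP1 and WWTR1 lay near 0.

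Of 14 genes for Hippo kinases, their adaptors and upstream activators, 0 were called higher at either dose, while 2 were called lower at 10 mM and 4 at 20 mM, near the 17.5% and 21.6% of all genes tested. The medians were -0.00 and -0.03. With the length covariate 2 were called higher at 10 mM and 3 at 20 mM. WWC1, which encodes the scaffold KIBRA that activates the LATS kinases, was at 9.24, 10.0 and 9.15 FPKM in the control, 4.57, 4.06 and 4.42 at 10 mM and 3.69, 3.82 and 3.86 at 20 mM. Its treated libraries all lay below the control, with log2 fold changes of -0.97 (limma adjusted p 1.42e-05) and -1.13 (limma adjusted p 3.02e-06). SAV1 had means of 11.8 ± 0.515, 8.74 ± 0.790 and 7.43 ± 0.437 FPKM (SD, n = 3), also with no overlap, and log2 fold changes of -0.39 (limma adjusted p 0.00438) and -0.60 (limma adjusted p 0.000266). The other genes called at 20 mM were MOB1A (-0.40, limma adjusted p 0.0137) and NF2 (-0.23, limma adjusted p 0.0332). The call of MOB1A was lost without control replicate 3 (limma adjusted p 0.0532) or 20 mM replicate 3 (0.0514). That of NF2 was lost without control replicate 1 or 2 or any 20 mM replicate (limma adjusted p 0.0638 to 0.111), and without 10 mM replicate 1 NF2 was called lower at 10 mM too (0.0424). At 20 mM NF2 was called under 9 of 18 alternatives: the replicate block, a pseudocount of 0.1, no filter and upper-quartile factors lost the call too, and its log2 fold change ran from -0.47 to -0.18. TAOK2 was called higher at 20 mM without control replicate 2 (0.24, limma adjusted p 0.0271) and TAOK3 at 10 mM without 10 mM replicate 2 (0.31, limma adjusted p 0.0365). TAOK2 was called under 5 of 19 alternatives at 20 mM and TAOK3 under 2 at each dose. Upper-quartile factors gave 2 genes higher and 3 lower at 20 mM. LATS1, the paralogue of LATS2, had means of 1.40, 1.91 and 1.85 FPKM and was called, as higher, with the length covariate alone, with limma adjusted p of 0.0149 at 10 mM and 0.0229 at 20 mM.

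Of 6 further TEAD factors and TEAD-binding vestigial-like genes, 4 passed the filter, and VGLL1 and VGLL2 did not. At 10 mM 0 were called higher and 2 lower, and at 20 mM 1 higher and 2 lower, with medians of -0.12 and -0.10. TEAD2 was at 12.7, 11.9 and 10.9 FPKM in the control, 7.36, 8.71 and 7.56 at 10 mM and 6.39, 6.76 and 7.05 at 20 mM. Its treated libraries all lay below the control, with log2 fold changes of -0.53 (limma adjusted p 0.00112) and -0.73 (limma adjusted p 0.000117). TEAD3 had means of 22.3, 18.5 and 19.3 FPKM and log2 fold changes of -0.26 (limma adjusted p 0.00830) and -0.20 (limma adjusted p 0.0230). At 20 mM its call was lost without control replicate 1 or 2 or any 20 mM replicate (limma adjusted p 0.0503 to 0.0871), and with median-ratio or upper-quartile factors or either limma-voom fit (up to 0.243). VGLL4, which encodes a protein that competes with YAP1 for TEAD factors, had means of 3.76, 5.04 and 5.37 FPKM and was called higher at 20 mM (0.42, limma adjusted p 0.0168). That call was lost without control replicate 1 or 3 or 20 mM replicate 1 or 3 (limma adjusted p 0.0508 to 0.0602). At 10 mM the log2 fold change was 0.34 (limma adjusted p 0.0511), and VGLL4 was called there under 9 of 19 alternatives, among them without control replicate 2 (0.0385) and without 10 mM replicate 2 (0.0221). In GENCODE 29, 22.1% of the exon bases of VGLL4 overlap ATG7 on the opposite strand, and ATG7 had a mean level of 3.77 FPKM. The part of this overlap in the VGLL4 values was not tested.

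Of 8 genes for junction and scaffold proteins that bind YAP1, WWTR1 or the LATS kinases, 7 passed the filter and AMOT did not. By limma 0 were called at either dose, and the medians were -0.06 and 0.03. At an unadjusted p under 0.05 there were 0 and 1, beside 6690 and 7630 of all 16572 genes tested. TJP1, which encodes a tight-junction scaffold, was called higher without 10 mM replicate 2 at 10 mM (0.52, limma adjusted p 0.0167) and at 20 mM without 10 mM replicate 1 or 2 (0.37, limma adjusted p 0.0353 and 0.0330). In all it was called at 20 mM under 6 of 19 alternatives, with upper-quartile factors, limma-voom with median-ratio factors, only the groups compared and the length covariate as the others, and at 10 mM under 3 (limma adjusted p from 0.00240 and 0.00303). Of 8 genes for AMPK subunits and the upstream kinase LKB1, 7 passed the filter and PRKAG3 did not. STK11, the gene of LKB1, was called lower at 10 mM, with means of 15.6, 12.3 and 13.2 FPKM and log2 fold changes of -0.31 (limma adjusted p 0.0160) and -0.22 (limma adjusted p 0.0606). The call at 10 mM was lost without control replicate 1 (limma adjusted p 0.0549) or 10 mM replicate 3 (0.0582), and without 10 mM replicate 2 STK11 was called lower at 20 mM (0.0297). Median-ratio factors, upper-quartile factors and only the groups compared lost the call at 10 mM as well, which held under 14 of 19 alternatives (limma adjusted p up to 0.106), and at 20 mM STK11 was called under 4. By limma 0 genes of this list were called higher at either dose, and the medians were -0.02 and 0.04. At an unadjusted p under 0.05 in either direction there were 2 and 4, beside 6690 and 7630 of all 16572 genes tested. PRKAB2, the gene of a regulatory subunit, was called higher at 20 mM under 6 of 19 alternatives, median-ratio and upper-quartile factors among them (limma adjusted p 0.0125 to 0.210 over all 19). PRKAB1, the gene of the other beta subunit, was called lower with the length covariate at both doses and without a filter at 20 mM (limma adjusted p from 0.0320 to 0.186 at 10 mM and from 0.0307 to 0.311 at 20 mM over all 19). The catalytic subunit gene PRKAA1 had means of 5.35, 5.10 and 4.69 FPKM.

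Of the other CCN genes, CCN3 passed the filter and CCN4, CCN5 and CCN6 did not. CCN3 was at 12.4, 11.9 and 13.4 FPKM in the control, 23.8, 21.9 and 24.1 at 10 mM and 21.6, 22.1 and 22.4 at 20 mM. All its treated libraries lay above the control, with log2 fold changes of 0.84 (limma adjusted p 1.42e-05) and 0.77 (limma adjusted p 1.44e-05). The CCN genes expressed here thus included CCN1, called lower, CCN2, not called, and CCN3, called higher.

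SRF and its MRTF coactivators respond to actin and share several targets with YAP1 and TEAD factors. Of 18 genes for these factors and their cytoskeletal targets, 17 passed the filter and CNN1 did not. At 10 mM 0 were called higher and 7 lower, and at 20 mM 1 higher (FHL1) and 7 lower, beside 17.5% and 21.6% of all genes tested called lower, with medians of -0.15 and -0.14. ACTB, the gene of beta-actin, had means of 1853, 1029.7 and 987 FPKM and log2 fold changes of -0.85 (limma adjusted p 0.000114) and -0.91 (limma adjusted p 4.71e-05). MYL9, which encodes a myosin light chain, was at 43.3, 39.0 and 39.0 FPKM in the control, 17.0, 20.8 and 20.2 at 10 mM and 17.1, 16.2 and 14.4 at 20 mM. Its treated libraries all lay below the control, with log2 fold changes of -1.03 (limma adjusted p 3.43e-05) and -1.29 (limma adjusted p 4.98e-06). SRF itself had means of 37.5 ± 1.11, 29.2 ± 1.02 and 30.8 ± 1.95 FPKM (SD, n = 3) and log2 fold changes of -0.35 (limma adjusted p 0.00189) and -0.28 (limma adjusted p 0.00501). With upper-quartile factors the limma adjusted p of SRF at 20 mM was 0.0637. These factors gave 2 genes higher and 4 lower at 20 mM. At 20 mM the call of FHL1 was lost without control replicate 1 or 20 mM replicate 2 or 3 (limma adjusted p 0.0720 to 0.0998) and that of FHL2 without control replicate 1 (0.0545) and with median-ratio or upper-quartile factors (up to 0.129). At 10 mM FHL1 was called under 6 of 19 alternatives. ZYX was called higher without 10 mM replicate 1 at 10 mM (0.20, limma adjusted p 0.0329) and at 20 mM without 10 mM replicate 1 or 2 (0.15, limma adjusted p 0.0424 and 0.0404), and in all under 2 and 5 of 19 alternatives. ACTN1 was called lower at 10 mM without 10 mM replicate 1 (-0.28, limma adjusted p 0.0179) and CALD1 at 20 mM without control replicate 1 (-0.41, limma adjusted p 0.0149).

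Among 6019 named genes with a mean of at least 5 FPKM, those whose log2(FPKM + 1) was most like that of CCN1 over the 9 libraries were CAVIN1 (Pearson r 0.993), SEPHS1 (0.987) and SEPTIN9 (0.984). CAVIN1 had means of 209, 154 and 157 FPKM. Most like CCN2 were RUNDC1 (r 0.944), CERS2 (0.924) and RAPGEF1 (0.922). Most like ANKRD1 were DLGAP5 (r 0.997), NDC80 (0.997) and MELK (0.995), and DLGAP5 had means of 28.4, 10.4 and 7.01 FPKM. The 9 points fall in 3 treatment groups, so these values describe the shared differences between groups as much as any likeness within them.

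In GENCODE 29 on GRCh38, CCN1 lies at chr1:85580761-85583962 on the plus strand, CCN2 at chr6:131948176-131951373 on the minus strand, and ANKRD1 at chr10:90912096-90921276 on the minus strand. YAP1 (chr11:102110461-102233423), AMOTL1 (chr11:94706431-94876753) and TEAD1 (chr11:12674591-12944483) share chromosome 11, all on the plus strand. AMOTL2 (chr3:134355874-134375479) and WWTR1 (chr3:149517235-149736714) share the minus strand of chromosome 3. LATS2 lies at chr13:20973032-21061547 on the minus strand and TEAD4 at chr12:2959330-3040673 on the plus strand. The lengths recovered with the reads differ from these gene models for all 10 members: for CCN1, 3698 bases exceed both its 2455 exon bases and its span, so the gene model behind its FPKM, which is not given in the sources used here, was not this one. Exons of 5 members overlap those of another gene: 8.34% of the exon bases of CCN2, 4.94% of AMOTL1, 3.13% of AMOTL2, 9.97% of YAP1 and 9.45% of WWTR1. The overlapping genes were antisense genes, or for AMOTL2 a pseudogene on the same strand, and had mean levels of at most 0.0711 FPKM. Whether the reads were counted by strand is not stated.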

How the data were processed

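Total RNA of 9 libraries (control, 10 mM and 20 mM 2-DG, 3 each) was sequenced by the authors, who deposited FPKM values per gene, 1 table per library. Their processing notes name the GRCh38 (hg38) build; the aligner, the counting tool and the strand setting are not given in the sources used here. The 20 mM tables carried more digits than the other 6, so the number format moves with the dose. Members were matched by gene name. The FPKM values were turned back into whole reads: GENCODE 29 exon lengths gave the library totals, and for each gene the GENCODE length, or else the smallest length that made all values whole within 0.01, gave its reads. The GENCODE length served for 48.6% of the genes and for 0 of the 10 members, whose printed reads and lengths rest on the lengths found this way. The other lengths came from the FPKM values themselves, so whole reads for all 32806 genes above 0 are no check of the recovery. The reads made up 99.8% to 99.9% of the totals and are not the authors' counts.

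A gene was tested when 3 or more libraries had 10 or more reads, scaled to the median depth, and all libraries together had 15 or more. limma 3.58.1 in R 4.3.3 was fitted on log2(FPKM + 1) over all 9 libraries (lmFit, contrasts, eBayes with a trend), and p-values were adjusted by Benjamini-Hochberg over the 16572 genes tested. The recovery of reads and the main limma fit were tested on simulated data, and the other steps were not. The limma simulation held no differences in mean gene length between libraries of a group, unlike these data. Ratios within a library were compared with exact two-sided permutation tests in scipy 1.17.1. Named genes are the members, genes of 7 lists written from general knowledge (further targets, Hippo kinases, TEAD and VGLL genes, junction scaffolds, AMPK, CCN genes, and MRTF and SRF genes), and the 3 genes most like CCN1, CCN2 and ANKRD1. The members and lists were chosen with earlier results of these data known. Alternatives varied the pseudocount, the filter, the scaling, the fit, the thresholds, the motif window and the libraries.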

Additional observations from a re-analysis of the deposited data

How the results depend on the processing

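The calls of CCN1, ANKRD1 and AMOTL2 against the control held at both doses under all 19 alternatives that keep an adjusted p. Among the values of single members under the alternatives, 541 kept their direction and side of the threshold, 24 came past it, 3 fell short of it and 32 uncalled values changed sign. The 3 that fell short were under the study's thresholds, put on limma's unadjusted p and fold change, CCN1 at both doses and AMOTL2 at 10 mM. The length covariate and limma-voom with median-ratio factors were chosen after seeing the data. Each member had at least 708 recovered reads in each library, and counting error is part of the spread between libraries. The mean gene length differed between libraries of one group, and the fit of all 9 libraries assumes an equal spread in each group. Where calls changed, the cause was not tested.

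Members lower at 10 mM numbered 3, against 5 with the length covariate, 1 under the study's thresholds and 3 to 5 when 1 library was left out. Members lower at 20 mM numbered 3, against 4 with FPKM of at least 1 in all libraries, 2 under the study's thresholds, 5 with limma-voom, with limma-voom and median-ratio factors, with only the groups compared and with the length covariate, and 3 to 5 when 1 library was left out. Members higher at 20 mM numbered 0, against 1 (CCN2) with median-ratio factors, upper-quartile factors, limma-voom with median-ratio factors, only the groups compared and the length covariate, and 0 to 1 when 1 library was left out. The calls over all genes moved too: the length covariate raised the genes lower from 2903 to 3640 at 10 mM and from 3582 to 4314 at 20 mM, and the genes higher at 20 mM from 2544 to 3198. At 20 mM 3656 genes were lower with limma-voom, 3177 with limma-voom and median-ratio factors, 3883 with only the groups compared and, of the 9734 genes that passed, 2734 with FPKM of at least 1 in all libraries.

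Under the study's thresholds the genes called numbered 96 higher and 192 lower at 10 mM, in place of 2011 and 2903, and 160 higher and 324 lower at 20 mM, in place of 2544 and 3582. Between the doses they called 1 gene higher, in place of 0. Without a filter 3 genes were lower between the doses, in place of 0. Leaving out 1 library gave 0 to 1 higher and 0 to 3 lower. Of the 17 further targets these thresholds called 0 higher (in place of 2) at either dose, 0 lower (in place of 6) at 10 mM and 1 lower (in place of 7) at 20 mM. With 1 library left out, 2 to 7 were lower at 10 mM and 4 to 8 at 20 mM.

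With the replicate number as a replicate block, 0 members were higher and 3 lower at each dose, as without it. Genes called then numbered 1754 higher and 2552 lower at 10 mM and 2276 higher and 3270 lower at 20 mM. Deviations of libraries with the same number correlated at -0.41 to 0.29 over 9 pairs, and those of libraries with different numbers at -0.23 to 0.52. The highest value joined control replicate 1 and 10 mM replicate 2, the libraries of lowest mean gene length in their groups. Because mean gene length differed within groups, this check cannot decide whether the numbers mark a pairing.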
